A study of Mus musculus with 8 samples.

Results

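Gm symbols are working names that the mouse genome annotation gives to predicted genes before a gene has a name of its own. Here they were followed as a set, as all genes whose symbol is Gm and digits only and to which a Klf6 peak was assigned, at any distance that the lists give (up to 50 kb before and 5 kb after the transcription start site, TSS). The rule left 302 Gm genes of the 3888 genes with a peak (7.77%), with 863 of the 7855 peaks that have a gene (11%).

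The peaks came from ChIP-seq of Klf6, a zinc finger transcription factor, in primary oligodendrocyte progenitors (OLP) and immature oligodendrocytes (iOL) of C57BL/6 mice. OLP were kept in PDGF-AA and bFGF, and iOL had received the thyroid hormone T3 at 40 ng/ml for 18 h. Each stage had 2 biological replicates, here called A and B, with 1 peak list per ChIP sample, made against the matching input. No stage marker could be checked, since peak lists hold no expression values. The lists held 105081 (iOL B) to 152149 (OLP A) tags in peaks, and the samples differed by letter as well as by stage: the smallest Gm peak had 7 tags in either A list, but 9 in the B list of OLP and 10 in that of iOL. With counts this low, intervals below cover counting error only.

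Many Gm genes belong to recently duplicated families that lie in clusters and read nearly the same from copy to copy. A short read from such a copy, or from a repeat scattered over the genome, can be placed at several sites. Factors of the Klf family bind GC-rich boxes and CACCC boxes, often near promoters. How the aligner placed reads with several equally good sites is not given in the sources used here, so a Gm name says where tags were placed.

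A first look at the strongest peaks shows the kind of sequence under them. The largest fold enrichment over input of any Gm peak was 92.37, at chr1:12634843-12634962 (mm9, plus strand), in OLP A, 22751 bp upstream of the long non-coding RNA Gm17644. The next was 89.94, at chr2:60240808-60240954 in OLP A, 8725 bp upstream of the long non-coding RNA Gm13580. Both are printed whole, with capitals for bases in a 32-base stretch that occurs once in the genome.
Gm17644: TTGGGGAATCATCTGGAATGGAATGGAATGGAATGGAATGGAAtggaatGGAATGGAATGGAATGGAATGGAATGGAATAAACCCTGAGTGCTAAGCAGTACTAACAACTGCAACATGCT
Gm13580: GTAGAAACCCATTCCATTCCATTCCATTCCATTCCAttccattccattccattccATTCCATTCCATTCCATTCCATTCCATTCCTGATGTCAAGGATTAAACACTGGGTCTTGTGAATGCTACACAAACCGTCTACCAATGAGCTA
The summits of both peaks lay in a run of the 5-base unit GGAAT, read as ATTCC on the other strand, 13 units long at Gm17644 and 15 at Gm13580. Flanking bases at the ends of the run make some stretches unique, while the stretch at the summit occurs 145 and 148 times. A run of at least 5 units lay in 7 Gm peaks, all at these genes, and in 13 peaks of 4 other genes (Cyr61, D17Wsu104e, Olfr854 and Tbc1d23). Fold enrichment at Gm13580 was 89.94 in OLP A, 23.03 in OLP B, 76.91 in iOL A and 7.85 in iOL B. Gm17644 had 92.37 in OLP A, 26.80 in OLP B and 49.62 in iOL A, and no peak in iOL B. Among the other 4 genes a run peak was called in each of OLP A, OLP B and iOL A, whereas in iOL B it was called at 1 of them, D17Wsu104e. The run peaks were therefore lowest or missing in iOL B.

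The second kind of sequence recurred at many places. Peaks of the members were joined into 609 loci (peaks at most 500 bp apart) and compared with each other by alignment. Loci whose peaks matched at 90% identity or more over at least 80% of the shorter peak were linked. Of the 609 loci, 308 were linked to another one, and 4 groups held 78, 63, 56 and 23 loci, followed by one of 7. For each of the 4 groups the strongest peak is shown with a near-identical peak on another chromosome, in the same orientation. Capitals mark bases that differ within a pair.
Group 1, Gm20579, chr17:39497080-39497205, plus strand: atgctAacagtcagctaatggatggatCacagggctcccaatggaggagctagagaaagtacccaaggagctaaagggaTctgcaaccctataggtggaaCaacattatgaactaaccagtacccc
Group 1, Gm5549, chr3:132273359-132273484, plus strand: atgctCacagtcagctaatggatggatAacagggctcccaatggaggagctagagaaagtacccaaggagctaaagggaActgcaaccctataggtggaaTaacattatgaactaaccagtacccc
Group 2, Gm4175, chr7:22563641-22563731, plus strand: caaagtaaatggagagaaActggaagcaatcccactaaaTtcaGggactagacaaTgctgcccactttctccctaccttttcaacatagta
Group 2, Gm5494, chr17:40674580-40674670, minus strand: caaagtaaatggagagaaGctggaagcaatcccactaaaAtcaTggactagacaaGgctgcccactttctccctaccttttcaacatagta
Group 3, Gm13084, chr4:143419501-143419651, plus strand: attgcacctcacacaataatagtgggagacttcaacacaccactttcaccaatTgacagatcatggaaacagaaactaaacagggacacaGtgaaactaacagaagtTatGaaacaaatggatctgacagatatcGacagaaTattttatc
Group 3, Gm14151, chr2:150896798-150896948, minus strand: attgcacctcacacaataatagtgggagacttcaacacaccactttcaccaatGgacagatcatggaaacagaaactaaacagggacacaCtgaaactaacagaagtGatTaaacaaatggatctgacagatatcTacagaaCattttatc
Group 4, Gm6329, chr8:46266959-46267057, plus strand: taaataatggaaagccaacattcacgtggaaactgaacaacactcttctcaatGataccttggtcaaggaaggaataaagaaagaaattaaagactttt
Group 4, Gm10778, chr10:81247343-81247441, plus strand: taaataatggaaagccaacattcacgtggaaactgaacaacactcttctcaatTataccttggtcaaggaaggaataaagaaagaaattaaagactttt
Within these pairs the aligned bases matched at 96.8%, 95.6%, 96% and 99.0%. Sequences of the 4 groups often lay near each other. In 53 of the 56 group 3 loci (94.6%), the group 1 sequence lay in the same neighbourhood, at a median of 3746 bp from it (interquartile range 3714 to 3750 bp). The group 4 sequence was a median of 349 bp away in 51 of these 56 loci and the group 2 sequence 1556 bp away in 52. Seen from group 1 the spacing was less regular: the group 3 sequence lay near 57 of its 78 loci (73.1%, interquartile range -3750 to -3166 bp), and the group 4 sequence near 57 as well (interquartile range -3400 to 1078 bp). The 4 groups held 428 of the 863 Gm peaks, at 152 genes on 16 chromosomes. No repeat annotation was used here, so no repeat class was named.

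**Figure D1:**
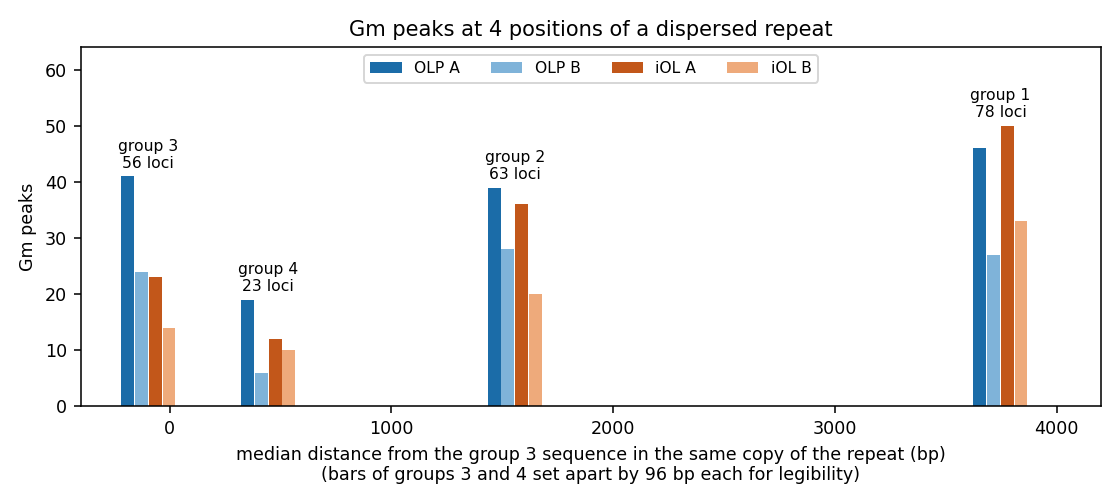
Number of Gm peaks (vertical axis) in each ChIP sample in the 4 groups of near-identical peaks (horizontal axis, median distance in bp from the group 3 sequence). OLP A had 41 peaks in group 3, 19 in group 4, 39 in group 2 and 46 in group 1, drawn at medians of 0, 349, 1556 and 3746 bp, which were measured from the group 3 loci.

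Peaks of other genes matched these groups too. The groups accounted for 41.5% of Gm peaks in OLP A (145 of 349), 52.8% in OLP B (85 of 161), 48.2% in iOL A (121 of 251) and 75.5% in iOL B (77 of 102). Peaks of the other genes fell in them at 46.5%, 43.8%, 48.2% and 53.3%. Gm peaks were higher in both B samples and lower or level in both A samples (mean difference 6.54 percentage points ± 11.9, SD over 4 samples, exact sign-flip test, two-sided, p = 0.50, where 0.13 is the smallest value 4 samples allow). The mean difference was smaller than its spread between samples. The groups were built from Gm peaks alone, and peaks of other genes were counted by their match to those peaks. This favours a higher share at Gm peaks, so the test cannot decide whether Gm peaks hold these sequences more often.

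A copy of the same sequence nearby was more frequent at Gm peaks than at other peaks. At a Gm summit the 32 bases around it had a median of 17 copies in the genome, close to the 16 at summits of other genes. However, another copy lay within 1 Mb for 64.2% of Gm peaks in OLP A, 31.7% in OLP B, 51.0% in iOL A and 27.5% in iOL B, against 31.4%, 17.6%, 32.3% and 15.3% for other genes. The difference was 19.5 percentage points ± 9.32 (SD, n = 4), higher in 4 of 4 samples, and the 95% Wilson intervals of the 2 shares did not overlap in any sample. These intervals treat peaks as independent, although several peaks can belong to 1 gene or hold copies of 1 sequence. The exact sign-flip test gave its smallest value, p = 0.13, or 0.268 after Benjamini-Hochberg adjustment over the 15 measures compared in this way. This measure and those on single copies, high copy number, the Klf box, chromosome X and peaks within 2 kb below were chosen after the data were seen. Over all samples, a copy within 1 Mb lay near 58.6% of the peaks of members with a coding RefSeq accession. For members with a non-coding accession it was 27.7%, close to the 26.1% at other genes.

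Summits that occur once in the genome were less frequent at Gm peaks than at other peaks. Over all samples they made up 4.35% of peaks of coding members, 16.1% of those of non-coding members and 19.9% at other genes. A single copy was found for 3.44% of Gm peaks in OLP A, 17.4% in OLP B, 6.37% in iOL A and 9.80% in iOL B, against 15.8%, 33.6%, 14.1% and 20.6% for other genes (lower in 4 of 4 samples, exact sign-flip p = 0.13). More than 50% of the 32-base stretches recurred elsewhere in the genome in 96.6%, 85.1%, 93.2% and 91.2% of Gm peaks, and in 84.5%, 67.1%, 86.4% and 80.4% of other peaks. That difference was 11.9 percentage points ± 4.61 (SD, n = 4, higher in 4 of 4, exact p = 0.13). Summits with over 100 copies were in contrast less frequent among Gm peaks (11.6% against 17.0% on average, lower in 4 of 4, exact p = 0.13).

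**Figure D2:**
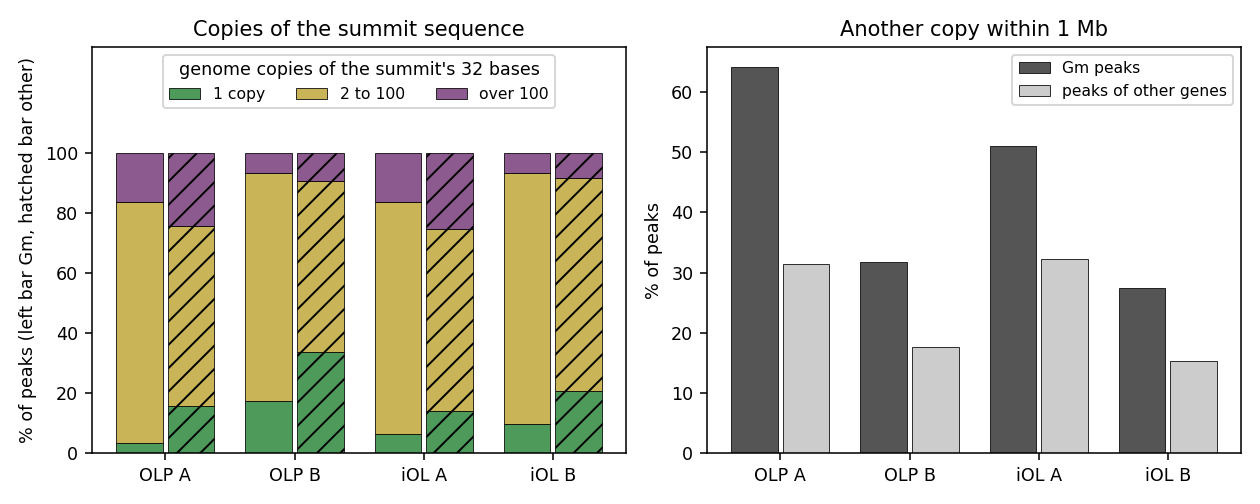
Left, percentage of peaks by the number of genome copies of the 32 bases around the summit, with plain bars for Gm peaks and hatched bars for peaks of other genes in each ChIP sample. Right, percentage of peaks with another copy within 1 Mb, which is higher for Gm peaks in all 4 samples (64.2% against 31.4% in OLP A).

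A pair of duplicated genes on chromosome X shows what identical sequence under peaks of different genes looks like. Gm14346 and Gm14351 are copies of the Btbd35f family, which encodes proteins with a BTB domain. In OLP A each had a weak peak upstream of its TSS, 1687 bp at Gm14346 (8 tags, 12.24-fold) and 1674 bp at Gm14351 (7 tags, 11.66-fold). The stretch common to both peaks is printed in lower case throughout, since 0 of its 126 bases differ.
Gm14346, chrX:30294650-30294775, plus strand: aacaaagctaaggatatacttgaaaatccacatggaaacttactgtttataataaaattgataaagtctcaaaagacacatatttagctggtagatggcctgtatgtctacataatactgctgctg
Gm14351, chrX:31754067-31754192, plus strand: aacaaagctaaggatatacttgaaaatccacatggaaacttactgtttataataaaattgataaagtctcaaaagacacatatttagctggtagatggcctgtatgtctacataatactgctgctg
The 32 bases at the summit of this Gm14346 peak had 24 copies in the genome, and the other 23 all lay on chromosome X. Tags in this stretch could not be told apart by their sequence.

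The number of Gm genes with a peak was compared between the stages first. OLP A had 204 Gm genes with a peak, OLP B 127, iOL A 168 and iOL B 85. The groups overlapped, since iOL A lay above OLP B, and both A samples lay above both B samples. OLP had a mean of 165.5 Gm genes and iOL 126.5, a difference of 39 that is smaller than the spread within either stage (SD 54.4 and 58.7, n = 2; exact permutation test, two-sided, p = 0.667, where 0.333 is the smallest value that 2 against 2 samples allow). Within each letter OLP was higher, by 36 genes in A and by 42 in B.

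Relative to all genes with a peak in the same sample, Gm genes made up 9.81% in OLP A (204 of 2080, 95% Wilson interval 8.60 to 11.2), 8.94% in OLP B (127 of 1420, 7.57 to 10.5), 9.46% in iOL A (168 of 1776, 8.18 to 10.9) and 7.73% in iOL B (85 of 1099, 6.30 to 9.46). The 4 intervals overlapped. The stage means were 9.38% ± 0.611 in OLP and 8.60% ± 1.22 in iOL (SD, n = 2), a difference of 0.779 percentage points (exact permutation p = 0.667). Among peaks that were not repeated, the difference turned to -0.871 points.

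**Figure D3:**
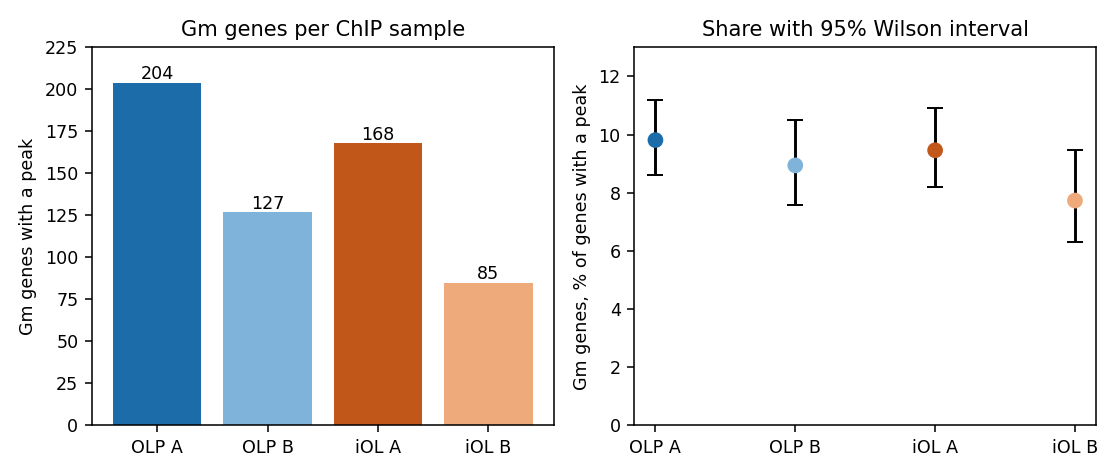
Left, number of Gm genes with a Klf6 peak in each ChIP sample. Right, the same as a percentage of all genes with a peak in that sample, with 95% Wilson intervals for counting error. The counts run from 85 (iOL B) to 204 (OLP A), while the percentages stay between 7.73 and 9.81.

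Recurrence across samples was counted per gene. A peak in only 1 sample was found for 150 of the 302 Gm genes (49.7%), against 63.9% of all genes. All 4 samples had a peak for 44 Gm genes (14.6%), where 350 of the 3888 genes did so (9.0%). The stricter count asked for a peak in each sample within 500 bp, which held for 31 Gm genes (10.3%), against 273 of all 3888 (7.02%). Among these 31 were 22 coding and 9 non-coding genes, 9 of them lay on chromosome X, and 16 belonged to a gene family. No test was made of these counts. Gm genes also held more peaks per gene (863 at 302 genes, against 6992 at 3586 other genes), which can raise a count per gene. With only peaks that were not repeated, 0 Gm genes were shared by all 4 samples, and with only peaks from 15 kb before to 5 kb after the TSS 9 were. Both A samples shared peaks at 73 Gm genes and both B samples at 42. For these filtered or partial counts no share over all genes is given, so they are not read as a trait of Gm genes. As 801 of the 863 Gm peaks were repeated, few remained in the count without repeats.

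The largest of these shared peaks were those of the sequences shown above. Gm20579, now named Esp18 and one of the exocrine gland-secreted peptides that act as pheromones, had a fold enrichment of 63.20 in OLP A, 19.15 in OLP B, 64.51 in iOL A and 34.88 in iOL B. Gm13084 (Pramel26, of the germline PRAME-like family) had 43.75, 23.00, 29.46 and 26.41 in the same order. Gm6329, a long non-coding RNA, had 34.82, 18.10, 42.44 and 27.48. In these 3 genes the A samples were the higher ones in both stages.

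Gm6578, a transcribed pseudogene, had folds of 36.46 in OLP A, 16.89 in OLP B, 39.70 in iOL A and 15.86 in iOL B. Gm4937, now the claudin gene Cldn34b3, had 34.03, 24.78, 27.29 and 21.14, at chrX:73486752-73486891 in OLP A. Gm10745, a long non-coding RNA on chromosome 3, had 31.60, 16.67, 34.73 and 21.87. Both A samples again lay above both B samples in all of them. Gm4175 (Vmn1r247) and Gm8453 (Vmn1r252), vomeronasal receptor genes, had their largest folds in iOL A (47.14 and 32.25). Gm14374 (Btbd35f7) had its largest fold in OLP A (38.89), at a peak with none in OLP B within 500 bp. Its shared peaks had 23.26 in OLP A, 11.26 in OLP B, 24.81 in iOL A and 11.63 in iOL B.

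Over all 31 genes the largest fold per gene had a median of 24.3 in OLP A, 13.5 in OLP B, 24.8 in iOL A and 14.8 in iOL B. It was taken over all peaks of the gene in a sample, so it was not always that of the shared peak. At Gm732, for example, the A and B samples had theirs at different sites. Both A samples lay above both B samples in 25 of the 31 genes. Both OLP samples lay above both iOL samples in 3, and the opposite order held in 1. The fold of a peak depends on each sample's own background, so the order by letter is given as a description. In tags these peaks of largest fold had medians of 12, 17, 11 and 17, and the B samples were then the higher ones.

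**Figure D4:**
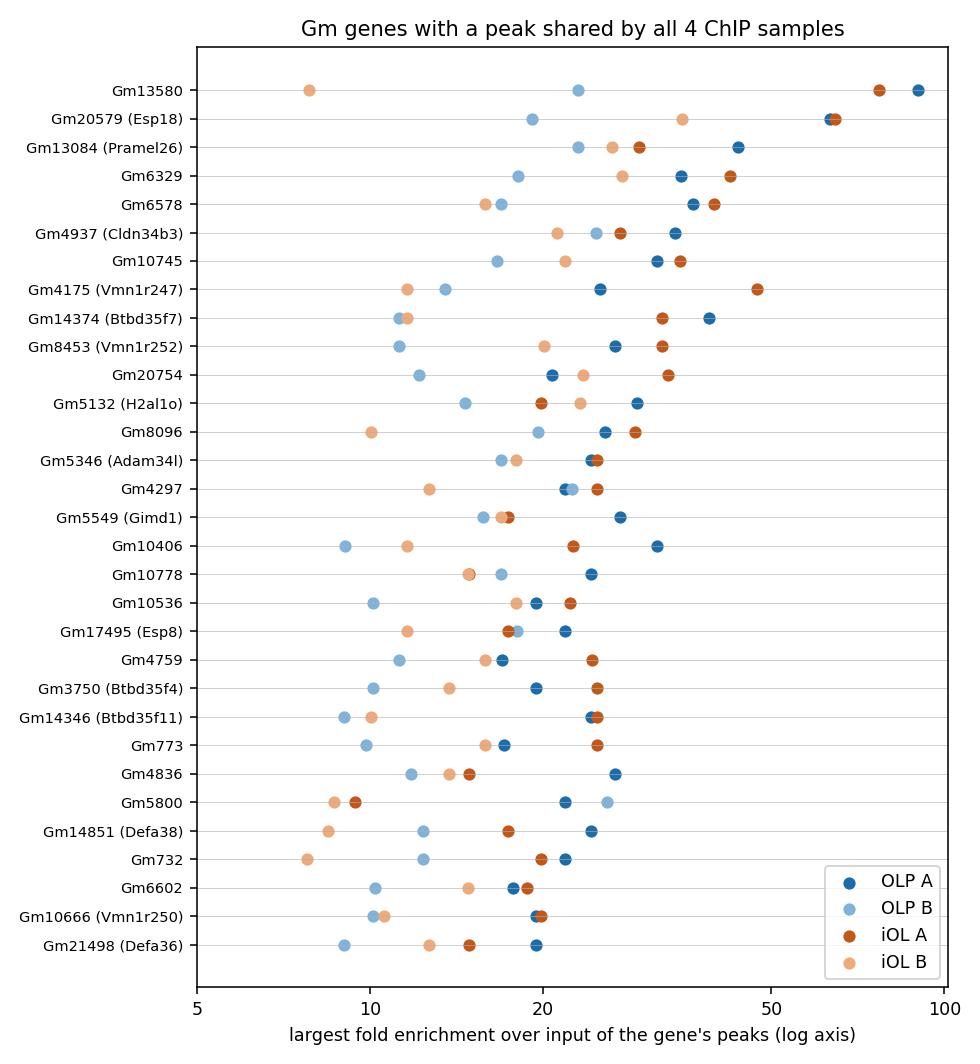
Largest fold enrichment over input (horizontal log axis) of the peaks of each of the 31 Gm genes that had a peak shared by all 4 ChIP samples, 1 point per sample, with the current gene name in brackets. Dark points (replicate A) lie to the right of light points (replicate B) for 25 of the 31 genes, from 7.79-fold at Gm732 in iOL B to 89.94-fold at Gm13580 in OLP A.

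The 4 groups also held most of what recurred, while they held 220 of all 609 loci. A locus was linked when any of its peaks matched, so loci with more peaks had more chances of being linked. Of the 32 loci with a peak in all 4 samples, 29 lay in the 4 groups of near-identical peaks, 11 in group 1, 11 in group 2, 3 in group 3 and 4 in group 4. The remaining 3 were the run at Gm13580, a locus at the long non-coding RNA Gm10536 and one at Gm5132. The latter gene, now called H2al1o, encodes a histone H2A variant. Its peak lay 2599 bp downstream of the TSS at chrX:9146869-9146967 and is the one shared locus whose summit stretch was unique in all 4 samples. It is printed from OLP A with the bases of single-copy stretches in capitals.
Gm5132, plus strand: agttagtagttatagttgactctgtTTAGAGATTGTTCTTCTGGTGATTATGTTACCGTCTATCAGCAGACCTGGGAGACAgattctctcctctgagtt
Fold enrichment at this Gm5132 peak was 29.17 in OLP A, 14.64 in OLP B, 19.85 in iOL A and 23.25 in iOL B, from 12, 13, 9 and 26 tags. Both stages and both letters overlapped there.

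Peaks of Gm genes that were found again in the other replicate of their stage differed from those that were not. Of the 863 Gm peaks, 255 had a peak of the other replicate within 500 bp, 68 of 349 in OLP A (19.5%), 67 of 161 in OLP B (41.6%), 61 of 251 in iOL A (24.3%) and 59 of 102 in iOL B (57.8%). For other genes the shares were 21.1%, 33.2%, 26.1% and 44.2%, so that Gm peaks were found again more often in the B samples and slightly less often in the A samples (difference 4.65 percentage points ± 7.65, SD, n = 4, exact sign-flip p = 0.50). The 4 groups held 80.9%, 80.6%, 91.8% and 91.5% of the Gm peaks found again, but 32%, 33%, 34.2% and 53.5% of those not found (48.0 points ± 8.0, higher in 4 of 4 samples, exact p = 0.13). Other genes had a like difference (40.0 points ± 5.69, higher in 4 of 4 samples, exact p = 0.13). At Gm genes a peak was also counted in a group when another peak of its locus matched.

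Local copies went the other way. Another copy within 1 Mb was present for 32.4%, 25.4%, 21.3% and 23.7% of the Gm peaks found again in OLP A, OLP B, iOL A and iOL B, and for 71.9%, 36.2%, 60.5% and 32.6% of those not found. The difference was -24.6 points ± 17.1 (SD, lower in 4 of 4 samples, exact sign-flip p = 0.13), and it was larger in the A samples. At other genes it was -6.85 points ± 8.57 (SD, higher in 1 of 4 samples, exact sign-flip p = 0.375). Peaks found again also had more tags, with medians of 11, 14, 10 and 15 against 8, 12, 8 and 12. Other genes had nearly the same medians, 11, 14, 10 and 15 against 8, 11, 8 and 12. Single-copy Gm peaks numbered 66 at 58 genes, and 7 of them (10.6%) were found again, compared with 31.1% of the other Gm peaks. Peaks of other genes showed this too. The single-copy share among peaks found again minus that among peaks not found was -12.1 points at Gm genes and -21.9 at other genes.

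Few Gm genes had peaks in both replicates of 1 stage and none in the other. In OLP 3 Gm genes (0.993%) had peaks within 500 bp in both replicates and none in iOL, where 60 of 3888 genes did so (1.54%). In iOL the same held for 3 Gm genes (0.993%) and for 43 of all genes (1.11%). These shares were close to the background of all genes. In OLP the genes were Gm16445 (16.62-fold in A and 14.64-fold in B), Gm10408 (14.58 and 13.52) and the vomeronasal receptor gene Gm4133 (Vmn1r243, 12.15 and 9.01). In iOL they were Gm9897 (Mterf1b, a mitochondrial transcription termination factor, 22.33 and 11.70), the long non-coding RNA Gm13544 (19.85 and 13.74) and Gm8298 (Aadacl2fm3, 17.37 and 11.63). The peaks of Gm10408, Gm13544 and Gm8298 lay in group 1 of near-identical peaks and those of Gm16445 in group 3. A peak absent from a list was not called there, which at 7 to 17 tags per peak does not show that the site was unoccupied.

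Gene families among the members were formed from current RefSeq names and from transcripts of at least 80% identity. They took in 126 of the 302 genes, in 21 families, with 430 of the 863 peaks. A copy of the summit stretch lay within 1 Mb for 69.1% of the family peaks and for 30.9% of the peaks of the other 176 genes. The lists held 2744 peaks with a gene in OLP A, 1647 in OLP B, 2222 in iOL A and 1242 in iOL B. Gm peaks numbered 349, 161, 251 and 102 in the same order. More peaks in A than in B are therefore not read as a trait of a family. By current RefSeq records, 197 members are protein-coding, 69 are long non-coding RNAs, 33 transcribed pseudogenes and 2 pseudogenes, and 102 have been given a proper name since the authors' annotation.

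The Btbd35f family had the most peaks. Its 15 genes, all on chromosome X, had 53 peaks in OLP A, 8 in OLP B, 30 in iOL A and 9 in iOL B, and 98 of these 100 peaks had a summit copy elsewhere on the same chromosome. Gm14346 (Btbd35f11) had the most peaks of any Gm gene, 19 at 13 loci, of which 1 locus recurred in all 4 samples (24.31-fold in OLP A, 9.01 in OLP B, 24.81 in iOL A and 9.51 in iOL B). Gm10922 (Btbd35f17) had peaks of 26.74-fold in OLP A, 24.81 in iOL A and 11.63 in iOL B at 1 place, and none there in OLP B. Gm3750 (Btbd35f4) was among the 31 genes shared by all samples.

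The Slx-like genes, 15 copies on chromosome X related to the spermatid gene Slx, had 29, 8, 16 and 3 peaks in OLP A, OLP B, iOL A and iOL B. Gm2030 reached 24.31-fold in OLP A, 15.77 in OLP B and 37.22 in iOL A, with no peak in iOL B. Gm4297 had 21.88, 22.53, 24.81 and 12.68 in the 4 samples, in group 4, and Gm4836 had 26.74, 11.78, 14.89 and 13.75 at 1 place. Gm10486 had 1 peak, of 18.95-fold in OLP A. Peaks in A again outnumbered those in B in both stages, as they did over all genes.

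Zinc finger genes formed the largest family by number, with 18 genes on 7 chromosomes and 30, 8, 10 and 1 peaks in the 4 samples. The members with the largest mean fold were Gm5595 (Zfp975, 24.81-fold in iOL A), Gm8898 (Zfp966, 19.45-fold in OLP A) and Gm10778 (24.31-fold in OLP A, 16.92 in OLP B, 14.89 in iOL A and 14.80 in iOL B). Gm10778 was the sole zinc finger gene shared by all 4 samples. A copy within 1 Mb lay near 81.6% of the family's peaks. The largest tag count of any Gm peak, 171, was at Gm13247 (Zfp981) in OLP B, over 1431 bp and at a fold of 3.62.

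The vomeronasal receptor genes (Vmn1r, receptors for pheromones in the nose) were 15 genes on chromosome 7 with 22, 13, 13 and 5 peaks. Gm10670 had folds of 31.60 in OLP A, 42.18 in iOL A and 12.23 in iOL B at 1 place, and lower peaks elsewhere in OLP B. The PRAME-like family had 9 genes with 13, 6, 6 and 2 peaks, among them Gm13103 (Pramel27, 17.02-fold in OLP A) and Gm3259 (Pramel47, up to 19.45-fold in OLP A). A group of 9 related genes on chromosome 14 without a named relative, Gm2897 and others, had 7, 5, 13 and 3 peaks and was the one among the 6 largest families with most peaks in iOL A. In it, Gm10406 had 31.60-fold in OLP A, 9.04 in OLP B, 22.58 in iOL A and 11.63 in iOL B, and Gm3558 had folds of 21.88 and 11.26 in the OLP samples A and B and of 17.51 in iOL B at 1 place, with peaks of up to 9.92 elsewhere in iOL A.

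The Esp genes (8 genes on chromosome 17) had 11, 7, 8 and 6 peaks, and 2 of them were shared by all 4 samples. A copy within 1 Mb lay near 25% of them. The alpha-defensin genes (Defa, antimicrobial peptides of the gut, 5 genes on chromosome 8) had 5, 4, 5 and 3 peaks, and Gm14851 (Defa38) and Gm21498 (Defa36) were shared by all 4 samples.

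**Figure D5:**
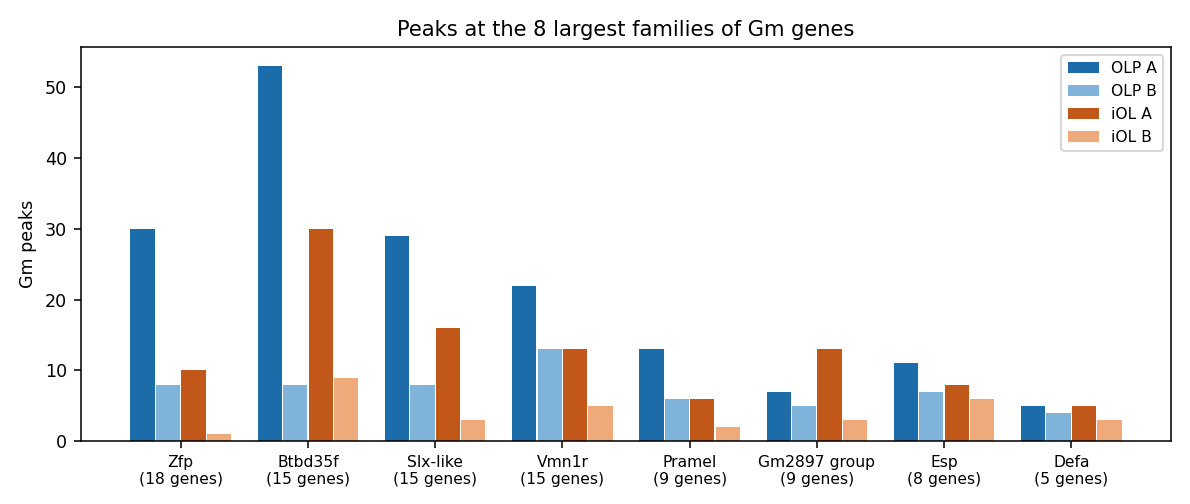
Number of Gm peaks (vertical axis) in each ChIP sample for the 8 largest families of Gm genes, with the number of genes in brackets. OLP A had the most peaks in 6 of them outright, from 53 in Btbd35f to 11 in Esp, and iOL A had the most in the Gm2897 group (13). OLP A also had the most peaks over all Gm genes (349, against 161 in OLP B, 251 in iOL A and 102 in iOL B).

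Chromosome X held 61 of the 302 Gm genes (20.2%) and 243 of the 863 peaks (28.2%), against 4.52% of the other genes. By sample, 34.4%, 19.3%, 28.3% and 20.6% of Gm peaks lay on X in OLP A, OLP B, iOL A and iOL B, and 5.85%, 5.11%, 6.24% and 5.70% of other peaks (higher in 4 of 4 samples, exact sign-flip p = 0.13). Where Gm genes lie in the genome was not compared, so this is a share of the peaks and not an enrichment.

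Most Gm peaks lay far from the gene that names them. Between 27.5% (iOL B) and 38.2% (iOL A) of the Gm peaks fell between 15 kb upstream and 5 kb downstream, and the median distance from the TSS ran from 19463 bp (iOL A) to 25506 bp (iOL B). Other genes had 38.2% to 40.1% in that window (difference -5.46 points ± 5.11, lower in 3 of 4 samples, exact sign-flip p = 0.25). By the GENCODE annotation of the same build, 676 summits were intergenic (78.3%), 166 intronic (19.2%) and 21 exonic (2.43%), and 46 lay inside a transcript of the Gm gene itself. A second gene was within the listed range for 230 of the 863 peaks (26.7%).

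Within 2 kb of a TSS there were 46 Gm peaks at 37 genes, and 4 of them were found again in the other replicate. In OLP A, OLP B, iOL A and iOL B, 6.59%, 5.59%, 4.78% and 1.96% of Gm peaks lay this near. For other genes it was 4.09%, 7.07%, 3.65% and 6.58% (difference -0.617 points ± 3.14, higher in 2 of 4 samples, exact sign-flip p = 0.75). A copy within 1 Mb was present for 34 of the 46, and 8 had a unique summit. In 8 genes such a peak was called in at least 2 samples. The 4 peaks found again were those of Gm10408, 738 bp upstream in both OLP A (7 tags) and OLP B (12 tags), and of Gm4133, 1637 bp upstream in OLP A and 1070 bp upstream in OLP B. The 2 peaks of Gm4133 did not overlap but lay within 500 bp. The others were Gm14346, Gm2913, Gm9758, Gm2933, Gm9125 and Gm21293, with folds from 6.30 to 14.56 and peaks at different sites.

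The binding box of the Klf family was searched as CCACCC and CCGCCC on both strands within 100 bases of each summit. It was present at 41 of the 863 Gm peaks (4.75%), at 31 genes, and at 6.06% of all 7855 gene-annotated peaks. By sample the shares were 4.87%, 2.48%, 5.18% and 6.86% for Gm peaks and 5.97%, 5.25%, 5.99% and 8.42% for other genes (lower in 4 of 4 samples, -1.56 points ± 0.862, exact sign-flip p = 0.13). The box was near a summit in all 4 samples for a single gene, Gm3750. Its peak is printed from iOL B, chrX:3711403-3711505, 36739 bp upstream of the TSS, with the match in capitals, which reads CCACCC on the minus strand.
Gm3750, plus strand: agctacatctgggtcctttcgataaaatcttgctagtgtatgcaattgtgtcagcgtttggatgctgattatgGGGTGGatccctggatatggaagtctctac
This peak was in group 1 too, with folds of 19.45 in OLP A, 10.14 in OLP B, 24.81 in iOL A and 13.74 in iOL B. Near a TSS the box was found at 4 Gm peaks, including 2 with a unique summit in GC-rich sequence, both in iOL B alone. Gm20337 had a peak 41 bp upstream (10 tags, 8.46-fold, 64.8% GC, 4 matches, FDR of 6.22%) and Gm16677 one 84 bp downstream (15 tags, 5.42-fold, 63.6% GC, 1 match, FDR of 3.86%). Both were chosen for mention after their values were seen, and neither was found in the other replicate.

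Peak height and base composition differed by less than the spread between samples. The median fold was 12.2, 9.32, 13.7 and 11.6 at Gm peaks and 14.6, 9.01, 14.9 and 10.6 at other peaks in OLP A, OLP B, iOL A and iOL B (difference -0.566 ± 1.56, SD, n = 4, exact sign-flip p = 0.625), lower in the A samples and higher in the B samples. Mean GC content was 37.5%, 37.0%, 38.0% and 40.5% against 39.3%, 36.8%, 39.9% and 40.8% (-0.96 points ± 1.07, exact p = 0.25). Folds in each sample took few values at Gm and other genes. Whole multiples (within 0.015) of 1 step made up 51.9% to 74.5% of the Gm folds and 63.3% to 67.9% of the others. The Gm share was higher in 1 of 4 samples. The step, picked as the best fit to each sample's folds, was 2.431 in OLP A, 1.126 in OLP B, 2.481 in iOL A and 1.057 in iOL B. The most frequent Gm fold in OLP A, 12.15, was shared by 39 peaks.

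The remaining genes stood out by number of peaks or tags. Gm16386, a transcribed pseudogene on chromosome 17, had 14 peaks, with 4 in OLP A, 3 in OLP B, 4 in iOL A and 3 in iOL B. Gm13238 on chromosome 4 had 13 peaks at 11 loci, and Gm4759, a transcribed pseudogene on chromosome 7, had 12 peaks at 4 loci, 1 of them in its own intron. After Gm13247, the largest tag counts were 132 in OLP A at Gm4262, where iOL A had 113 tags at the same place in an intron of Litaf (12.04-fold and 9.51-fold, not called in either B sample), and 113 in OLP B at Gm16197. The latter is now named Trp53cor1, a long non-coding RNA induced by p53. Gm5800 had its largest fold in OLP B (25.91), with 21.88 in OLP A, 9.42 in iOL A and 8.67 in iOL B. By fold both OLP samples lay above both iOL samples. In tags this order did not hold, with 9 in OLP A, 26 in OLP B, 11 in iOL A and 11 in iOL B.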

How the data were processed

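Klf6 ChIP-seq peak lists of 4 samples (OLP and iOL, replicates A and B) were used. After quality filtering, the authors used Bowtie2 for alignment (mm9) and MACS for peak calling, 1 ChIP library and its input at a time, and listed the nearest RefSeq TSS. In the deposited lists, the tag number of a peak is a raw count. The deposited significance is a score that rises with -log10 of the MACS p-value. The deposited fold enrichment is a linear ratio over the expected background. The authors' FDR is in percent. The MACS version and the handling of multiply aligned reads are not given in the sources used here.

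All listed peaks with a gene were used, with no FDR limit. Peaks at most 500 bp apart were called shared. Sequences, GC content and copies of 32-base stretches on either strand were read from NCBIM37, the same build as mm9, where 0 peaks passed a chromosome end. Of the 302 members, 301 matched RefSeq, whose newer assembly gave names only. Gene families were meant to rest on RefSeq proteins, which were not used here. Current name stems and GENCODE transcripts (80% identity over at least 50%), with BLAST 2.17.0 at an E value of 1e-10 for peak sequences, took their place.

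Stages were compared by exact permutation of 2 against 2 samples, and Gm peaks with other peaks within each sample by exact sign flips over 4 samples. Depth is known only through 105081 to 152149 tags in peaks per sample, and Wilson intervals cover counting error. Named genes were those with peaks shared by all 4 samples (10 of largest fold), the 3 largest folds per sample, those with peaks within 2 kb of a TSS in 2 samples (8), those of 1 stage only (4 a stage), the 5 with most peaks, the 3 with most tags and 3 of each of the 5 largest families (6, with a tie). Members, lists and measures were chosen with earlier results of these data known. Scripts were tested on simulated data. The software was scipy 1.17.1, numba 0.67.0, pandas 2.3.3 and numpy 2.4.6 under Python 3.11.15.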

Additional observations from a re-analysis of the deposited data

Results flagged for a closer look

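The lists name every gene in range of a peak besides the nearest one, and this column was used in no comparison. It holds 106 further Gm genes that are nearest to no peak in any of the 4 samples, on top of the 302 members. No input or control sample has a list of its own to set this number against.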

How the results depend on the processing

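No comparison of 2 against 2 samples or by 4 sign flips could reach significance, so only directions and sizes are compared. Of 89 alternatives, 79 kept the direction (or, for counts, stayed within 1.5 times), 7 reversed it and 3 moved a count. Among peaks that were not repeated, the OLP minus iOL share of Gm genes reversed to -0.871 percentage points, the fold difference to 0.039 and the GC difference to 0.687 points, and 0 Gm genes had a peak shared by all 4 samples, against 31. The fold difference also reversed to 0.651 with a score of at least 50, to 0.548 with genes as the unit and to 0.683 without replicate A (-1.82 without replicate B). Without replicate B the difference in peaks found again reversed to -1.71 points (11 without replicate A). Within 15 kb before and 5 kb after the TSS, 9 Gm genes were shared by all samples. Leaving out a letter gave 42 to 73 genes shared by the remaining samples. The cause was not tested, beyond fewer peaks or samples by construction.

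A replicate block by letter left the stage difference at 39 genes and 0.779 percentage points (exact sign flips of 2 pairs, p = 0.50, the smallest possible). The letters are labels only: Gm gene lists of the same letter overlapped by a mean Jaccard index of 0.393, those of the same stage by 0.336. Lists that shared neither had 0.316. The letter mean came from 0.453 for the A samples and 0.333 for the B samples, the latter level with the same-stage pairs (0.34 in OLP and 0.332 in iOL). Leaving out chromosome X or large families among the other genes, both chosen after seeing the data, reversed nothing. Median counts of 8 to 14 tags per Gm peak limit all statements on absence.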
